A study of Mus musculus with 60 samples.

Results

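Gene expression in the mammary glands of ovariectomized mice given progesterone alone was compared with that in mice given sesame oil. All animals of the study were ovariectomized, so they lacked the ovary's own estrogen and progesterone, and each was injected into the abdominal cavity daily for 4 days. The comparison joins the samples whose titles name 1 mg of progesterone and no estrogen (P, 4 animals) with those whose titles name vehicle, 100 µl of sesame oil (V, 4 animals). These are 8 of the study's 20 animals and 24 of its 60 arrays, since every animal was read on 3 array types, the A, B and C arrays of the Affymetrix MG-U74 set. Other groups stand beside them where a result turns on them: glands after 2 µg of estrogen (E, 4 animals), glands after estrogen and progesterone at the same doses (E+P, 5 animals), and fat pads without epithelium after both hormones (E+P CFP, 3 animals). The groups here follow the titles, since the vehicle samples carry a description that mentions progesterone. Lymph nodes had been taken out of the glands. Strain and age were not given in the sources used here.

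Each probe set, a group of short DNA probes against 1 transcript, gave a signal intensity per array. Of 36701 probe sets that are not controls, 23062 passed a brightness filter and were tested; these represent 12232 genes. Signals below a floor set for each array type (13.6 on A, 28.6 on B and 19.8 on C) were raised to it, so a value at the floor is only an upper bound and a difference against it is a lower bound of its size. Differences are log2 differences of group means, P minus V, ± the standard error from limma, with p-values adjusted over all tested probe sets; a difference of 1 is a doubling. A gland is a mixed tissue, so fewer cells of a type and less RNA per cell cannot be told apart.

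Progesterone acts through the progesterone receptor, a hormone-activated transcription factor encoded by Pgr. In the mammary gland the receptor sits in a subset of luminal epithelial cells, and estrogen is a main inducer of it. Receptor-positive cells answer by making signals for their neighbours, among them the cytokine RANKL (Tnfsf11) and the ligand Wnt4, which drive division of other epithelial cells and side branching of the ducts. Glucocorticoid and progesterone receptors recognise similar DNA elements and share target genes such as Fkbp5 and Zbtb16.

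The tissue showed its labelled identity in part. The luminal keratin Krt8 read 752, 633, 738 and 810.1 in V 1 to V 4 and 731, 1009, 585 and 794 in P 1 to P 4, and was at the floor of 13.6 in the 3 fat pads without epithelium. Krt18, its partner, read 1329, 1115, 1216 and 1549 in V and 917, 1097, 1150.3 and 1032 in P. Adipoq, a hormone of fat cells, was among the brightest genes, at 10036, 10093, 10377 and 8315 in V and 9126, 11549, 12465 and 11479 in P. The basal keratin Krt5 and the milk protein gene Wap were at the floor in all V and P animals. The basal keratin Krt14 and the milk protein gene Csn2 were dim and uneven: 2 of the 4 animals of each group were at the floor of 13.6 for Csn2, which reached 33.5 in V 3 and 86.4 in P 3, and the brighter Krt14 probe set reached 81.2 in V 3 and 52.9 in P 3 against a floor of 19.8. None of these 4 genes was tested.

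The animals also differed in what their glands held besides epithelium and fat. A level was computed per animal for each of 35 gene lists, as the mean over a list's tested genes of the log2 deviation from the gene's mean over all animals. The 22 tested lymphocyte and plasma cell markers (all but 1 with a difference above 0) gave levels of -1.37, -1.22, -1.29 and 1.28 in V 1 to V 4 and -0.27, 0.82, 0.86 and -1.32 in P 1 to P 4. Glycam1, a mucin of lymph node venules that milk also holds, was at the floor in V 1, V 2, V 3 and P 4 and read 1762 in V 4 and 521, 1666 and 1596 in P 1 to P 3. Skeletal muscle markers stood at -0.70, -0.14, 0.44 and -0.10 in V and at -0.80, -0.05, -0.96 and -0.79 in P. RNA degradation raises the signal of the 3' Gapdh control probes over that of the 5' ones; this ratio was on average 2.52 ± 0.79 (SD, n = 4) in V and 2.05 ± 0.50 (SD, n = 4) in P (two-sided exact permutation p = 0.486, with 0.0286 the smallest that 4 against 4 animals allow). V 4 had the highest ratio, 3.69, and P 1 the lowest, 1.35. Trimmed means of the 24 arrays lay between 150.03 and 150.1.

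**Figure D1:**
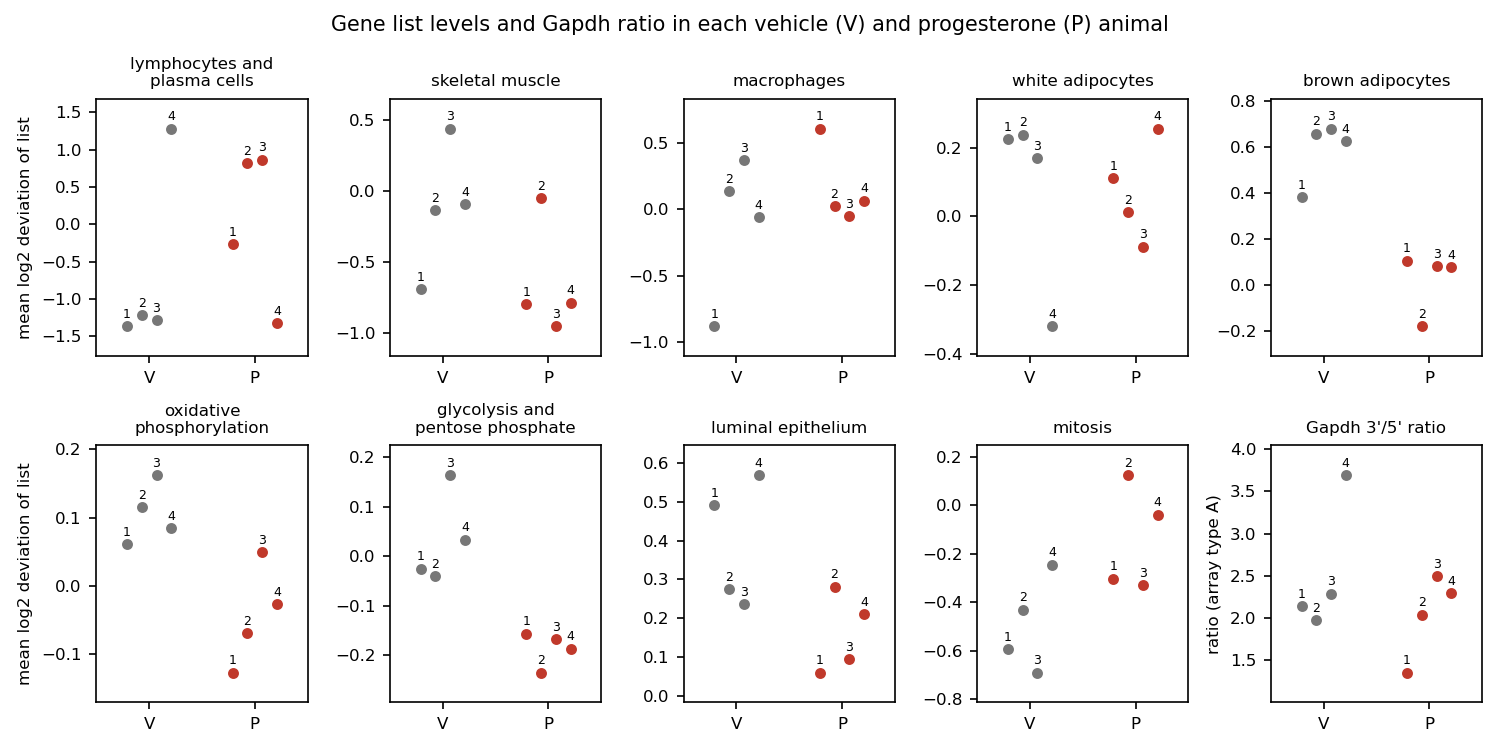
Each point is 1 animal (numbered 1 to 4) of the vehicle (V) or progesterone (P) group. The first 9 panels show list levels as the mean log2 deviation from the average of all animals, and the last shows the Gapdh 3'/5' signal ratio on array type A. V 4 stands apart in lymphocyte markers at 1.28, and V and P do not overlap for brown adipocytes, oxidative phosphorylation and glycolysis.

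The clearest differences after progesterone alone were higher signals of Zbtb16, Zbtb20 and Eif4e3 and lower signals of Tomm34, Gorasp2, Mycl and Mlph, each near the threshold but not past it. No probe set passed the threshold of 0.05 after adjustment between P and V: 0% were called in either direction, and the smallest adjusted p was 0.0653. Before adjustment, p was under 0.05 for 952 probe sets higher in P (4.13%) and 904 lower (3.92%). The groups did not overlap, with all 4 P animals above or all 4 below the 4 V animals, for 419 probe sets higher in P (1.82%) and 470 lower (2.04%). Counted as genes, with 1 probe set each, these were 204 higher (1.67%) and 270 lower (2.21%). Over all genes the median difference was 0.0039, the middle 90% ran from -0.62 to 0.60 and the median standard error was 0.23. A difference reached 1 for 158 genes and -1 for 201. The count of 0 rested on all animals being kept: without P 1, P 3, P 4 or V 2 in turn, 3, 4, 2 and 3 probe sets passed, and none without any other single animal. They were Tomm34, Mlph and Leng8 without P 1; Eif4e3, Zbtb20, Mycl and Stx2 without P 3; Gorasp2 and Cluh without P 4; and Tomm34, Zbtb20 and Gorasp2 without V 2.

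The transcription factor gene Zbtb16, a zinc finger protein also called PLZF, separated the groups on both of its tested probe sets. On the first its signal was 195, 137, 156 and 81.0 in V 1 to V 4 and 283, 395, 909 and 596 in P 1 to P 4. All P animals lay above all V animals, for a difference of 1.87 ± 0.37 (adjusted p = 0.0903). On the second, on another array type, the V animals were tightly grouped at 157, 160.2, 159 and 132 and the P animals read 362, 521, 343 and 408, a difference of 1.41 ± 0.27 (adjusted p = 0.0751). Neither passed the threshold.

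Other genes with the smallest p-values were as near to it. Zbtb20, a zinc finger repressor of the same family, read 28.6, 61.2, 41.1 and 28.6 in V, where V 1 and V 4 were at the floor, and 146, 141, 73.4 and 136 in P (1.66 ± 0.31, adjusted p = 0.0699). Its 5 other tested probe sets gave 0.036 to 0.46, above 0 but far smaller, and V and P overlapped on each of them. Eif4e3, which binds the cap of mRNA, read 367, 309.7, 265 and 238 in V and 600.0, 863, 427 and 648 in P (1.08 ± 0.19, adjusted p = 0.0653). Its other probe set gave -0.003, with no such separation.

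On the lower side stood Tomm34, a cochaperone of mitochondrial protein import, and Gorasp2, a Golgi stacking protein. Tomm34 read 328, 239.7, 302 and 440.2 in V and 201, 106, 90.3 and 93.9 in P (-1.46 ± 0.24, adjusted p = 0.0653). Only P 1 came near the vehicle animals. Gorasp2 read 362, 294, 467 and 685 in V and 95.5, 75.6, 98.9 and 179.6 in P (-2.01 ± 0.35, adjusted p = 0.0653), but its 4 other tested probe sets gave -0.30 to 0.42.

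**Figure D2:**
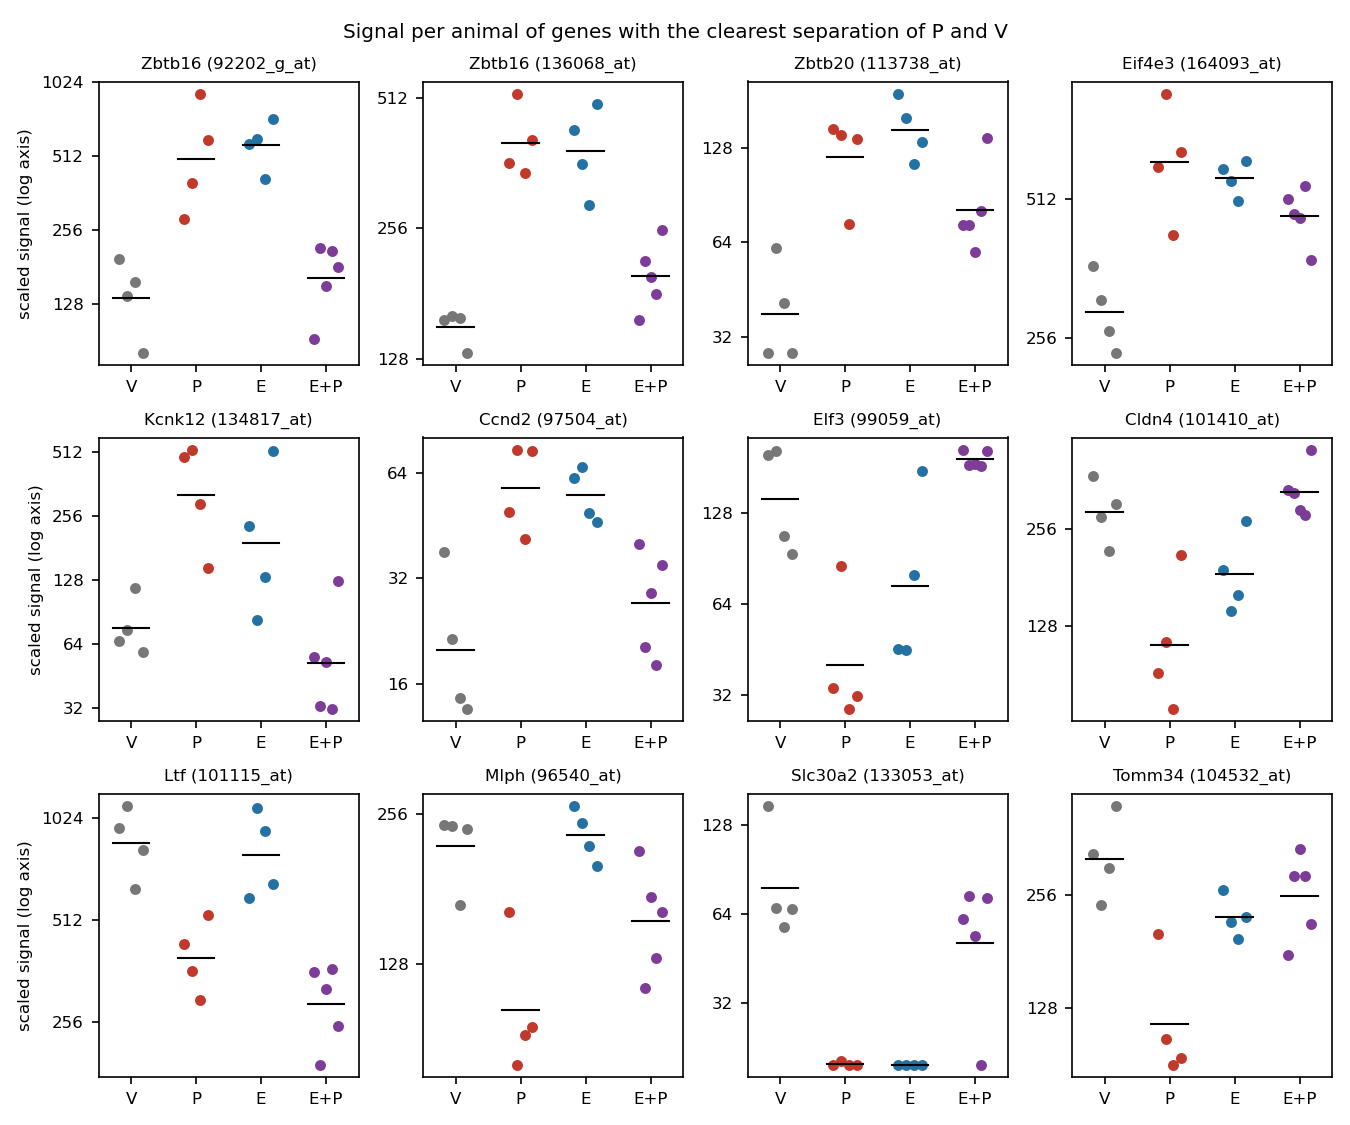
Signal of 12 probe sets in each animal on a log axis, in arbitrary intensity units, for vehicle (V), progesterone (P), estrogen (E) and both hormones (E+P); bars are geometric means. The V and P animals do not overlap in any panel, and the Zbtb16 signal in E+P, 92.0 to 217 on the first probe set, lies nearer to V than to P.

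Receptors, ligands and known targets of the hormone gave a mixed picture, with Zbtb16 alone well separated upward. Pgr itself was too dim to test, at the floor in all 4 P animals and 2 of the 4 V animals. Tnfsf11, the RANKL gene, was dim too, at the floor in 3 V and 2 P animals, with 17.2 the highest V signal and 27.2 the highest P signal. Its receptor Tnfrsf11a read 51.6, 59.3, 46.0 and 23.0 in V and 70.5, 77.8, 42.9 and 26.7 in P (0.24 ± 0.40), overlapping throughout. Wnt4 read 321, 576, 735 and 492 in V and 567, 640.4, 635 and 481 in P (0.18 ± 0.25). The estrogen receptor gene Esr1 read 912, 874, 959 and 553 in V and 706, 597, 1003 and 691 in P (-0.13 ± 0.20), while its second probe set gave 0.75. None of these 3 tested genes passed the threshold, and their adjusted p-values were 0.896 or more.

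Among the progesterone receptor targets, 13 of 18 listed genes were tested and 0 passed the threshold. The groups did not overlap for 2: Zbtb16, above, and Stat5a, a transcription factor of milk protein genes, which was lower. Each is 7.69% of the list, against 1.67% of all genes upward and 2.21% downward. With 1 gene each way, no lean of the list can be read from this. Stat5a read 958, 882, 879.8 and 948 in V and 814, 862, 627 and 786 in P (-0.26 ± 0.13, adjusted p = 0.629), and its other probe set gave -0.26 as well. The median over the 13 was -0.021, against 0.0039 over all genes. Fkbp5, a cochaperone that steroid receptors induce, read 159, 96.5, 112 and 192 in V and 164, 204, 439 and 222 in P (0.83 ± 0.31, adjusted p = 0.494). P 3 was its highest animal and P 1 lay within the V range. P 3 was also the highest on the first Zbtb16 probe set, but the lowest P animal on the second. Elf5, the factor of the alveolar lineage, read 179, 109, 124 and 167 in V and 134, 146, 213 and 132 in P (0.12 ± 0.21). Cyclin D1 (Ccnd1) and Cited1, a coregulator of luminal cells, stood at -0.02 ± 0.21 and -0.30 ± 0.24, Id4 at -0.21 ± 0.23 and the progesterone-degrading enzyme gene Akr1c18 at 0.11 ± 0.29, all overlapping. Other probe sets pointed elsewhere, at 0.30 and 0.42 for Ccnd1, 0.22 for Cited1 and -1.07 for Akr1c18, and these overlapped too. Per1 and Klf9, shared targets of progesterone and glucocorticoid receptors, had 1 P animal each at the floor (P 3 and P 2) and stood at -0.87 ± 0.53 and -0.24 ± 0.54. The 2 brighter probe sets of Klf9 gave 0.073 and 0.11.

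Of 11 tested genes of the RANK and NF-kB pathway, 19 Wnt ligands and modulators and 20 ligands and receptors of the EGF, FGF and IGF families, none passed the threshold and none separated the groups. Their medians were 0.11, 0.17 and -0.003. The 12 tested steroid receptors and coregulators and 13 genes of steroid metabolism held no separated gene either, with medians of 0.068 and -0.032. The 9 genes of the prolactin and Stat5 pathway held Stat5a alone as a separated member, with a median of 0.049. Among 14 estrogen receptor targets the separated gene was Ltf, described with the epithelium below, and the median was 0.022. Of 18 glucocorticoid receptor targets only Zbtb16 was separated, and the median was 0.079. Among all genes 1.67% were separated upward and 2.21% downward, so a single gene in lists of this size is no result about the list.

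The 12 largest differences upward, among genes with an unadjusted p under 0.01 and groups that did not overlap, ran from 2.08 to 1.17 (57 genes met both conditions). Kcnk12, a potassium channel gene, led them with 65.7, 74.1, 117 and 58.2 in V and 482, 519, 291 and 145 in P (2.08 ± 0.53, adjusted p = 0.283). Mapk10, a kinase of the JNK family, was at or near the floor in V (19.8 to 22.9) and read 29.0, 123, 155 and 41.0 in P (1.75 ± 0.60). Rbm19, a ribosome assembly gene, was at the floor of 28.6 in all 4 V animals and read 88.5, 114, 178 and 33.9 in P. The mean of P was thus at least 3.09-fold that of V. Ccnd2, a D-type cyclin that drives entry into DNA synthesis, read 38.0, 21.5, 14.5 and 13.6 in V and 49.7, 74.3, 41.5 and 73.8 in P (1.53 ± 0.37, adjusted p = 0.269). It was lower in the E+P gland than in the fat pad without epithelium (-1.41, adjusted p = 0.0238). Slc17a6, a vesicular glutamate transporter gene, and Stk36, a kinase of the hedgehog pathway, stood at 1.59 ± 0.45 and 1.17 ± 0.30. The others were the protease gene Prss44, Pigg, which acts in GPI anchor synthesis, Phf7, the spindle motor Kif23 and the mitotic survival gene Birc5. Another probe set of Prss44, Stk36 and Kif23 gave a difference of -0.17, -0.04 and -0.10, which is not the same direction.

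The 12 largest differences downward ran from -1.98 to -1.54 (96 genes met both conditions). Slc30a2, the zinc transporter that loads zinc into milk, read 148, 67.0, 57.7 and 66.2 in V and was at or within 1 unit of the floor of 19.8 in every P animal (-1.98 ± 0.43, adjusted p = 0.146). Mycl, a member of the Myc family of transcription factors, read 168, 133, 106 and 128 in V and 20.3, 27.5, 71.3 and 56.5 in P (-1.77 ± 0.34, adjusted p = 0.0903). Mycl was also lower in P than in E, by a test that passed the threshold (-2.19 ± 0.34, adjusted p = 0.0147). That test uses the same P animals, so it is not independent of P against V. Of all 23062 probe sets, 13 (0.0564%) passed in P against E. Nvl, a nucleolar ATPase gene, Cytl1, a secreted cytokine-like protein gene, and Cnpy1 stood at -1.86 ± 0.55, -1.86 ± 0.50 and -1.81 ± 0.51. Rims1, a protein of the synaptic release zone, Osbpl6, an oxysterol-binding protein gene, Asic2, an acid-sensing channel gene, and Primpol, a primase-polymerase gene, lay between -1.76 ± 0.58 and -1.60 ± 0.48. Gm20052 stood at -1.68 ± 0.54 and Ccdc136 at -1.54 ± 0.46. Another probe set of Cytl1 and Ccdc136 gave 0.48 and 0.98, in the other direction. Some animal was at the floor for 5 of the 12 genes upward and 7 of the 12 downward.

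Among genes of the luminal epithelium the widest separations were downward, in Elf3 and Cldn4. Elf3, an epithelial transcription factor of the ETS family, read 200.0, 205, 108 and 93.7 in V and 33.8, 85.8, 29.0 and 31.8 in P (-1.82 ± 0.38, adjusted p = 0.146). P 2 was the highest of the P animals and still below every V animal, but the second probe set of Elf3 gave -0.06. Cldn4, a tight junction protein of luminal cells, read 375, 279, 219.6 and 306 in V and 91.6, 115, 71.2 and 213 in P (-1.37 ± 0.35, adjusted p = 0.305). Prom1, a marker of hormone-sensing luminal cells, read 184, 229, 180.1 and 304 in V and 164, 148, 172 and 109 in P (-0.58 ± 0.25). In the other direction, the adhesion gene Cdh1 read 196, 193, 179 and 196 in V and 229.8, 242, 223 and 242 in P (0.29 ± 0.13). So of 24 tested luminal markers 0 passed the threshold, 3 were separated downward and 1 upward (12.5% and 4.17%, against 2.21% and 1.67% of all genes), and the median was -0.14. The luminal list level was 0.24 to 0.57 in V and 0.060 to 0.28 in P, which overlap.

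Single genes of secreted proteins were separated as well, in both directions. Ltf, the iron-binding milk protein lactoferrin, read 957, 1111, 632 and 827 in V and 435, 362, 297 and 530.3 in P (-1.12 ± 0.26, adjusted p = 0.229). Cel, the bile-salt-activated lipase of milk, read 194, 183, 217 and 187 in V and 244, 250.4, 261 and 262 in P (0.38 ± 0.14, adjusted p = 0.487). These 2 of 14 tested milk and secretory genes thus lay on opposite sides, where 1.67% of all genes were separated upward and 2.21% downward. Mlph, a linker of vesicles to motor proteins, read 243, 242, 168 and 239 in V and 163, 80.7, 92.3 and 95.9 in P (-1.09 ± 0.21, adjusted p = 0.0903), while its other probe set gave 0.012. As for Mycl, the test of P against E, which uses the same P animals, passed the threshold (-1.16 ± 0.21, adjusted p = 0.0457). Of 12 basal and myoepithelial markers only Krt17 was separated, at 40.3, 62.2, 81.7 and 34.5 in V and 122, 110.1, 84.3 and 128 in P (1.09 ± 0.48), and its other probe set gave -0.11.

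A wider set of genes higher in gland than in fat pad was taken from animals outside the comparison. These 496 genes were at least 2-fold higher in E+P glands than in E+P fat pads without epithelium (adjusted p under 0.05), and no P or V animal enters that contrast's means. In P against V, 25 of them were separated downward (5.04%, against 2.21% of all genes) and 10 upward (2.02%, against 1.67%). Their median difference was -0.080. Separated downward were Elf3, Mycl, Cldn4, Ltf, Mlph, Prom1 and Ucp1, with Upk3a, Itih2, Pof1b, Zfp664, Tox2, Cpt1a and Sox10 among the rest. Upward stood Kif23, Birc5, Pola1, Smyd5, Serpinb11 and Ankrd26 and 4 others. Leaving out 1 animal makes separation easier for any gene, and then 28 to 47 of these genes were separated downward (5.67% to 9.51%, against 3.28% to 4.69% of all genes). Of the 99 genes at least 2-fold higher in the fat pads, 3 were separated upward (3.03%) and 4 downward (4.04%), with a median of -0.064. The share downward was thus above that of all genes in both sets. It was not shown to be particular to the genes higher in gland. The set is not purely epithelial, since it holds Ucp1 of brown fat, which was at the floor in all 3 fat pads. It was chosen after the data had been seen, so it is a description.

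**Figure D3:**
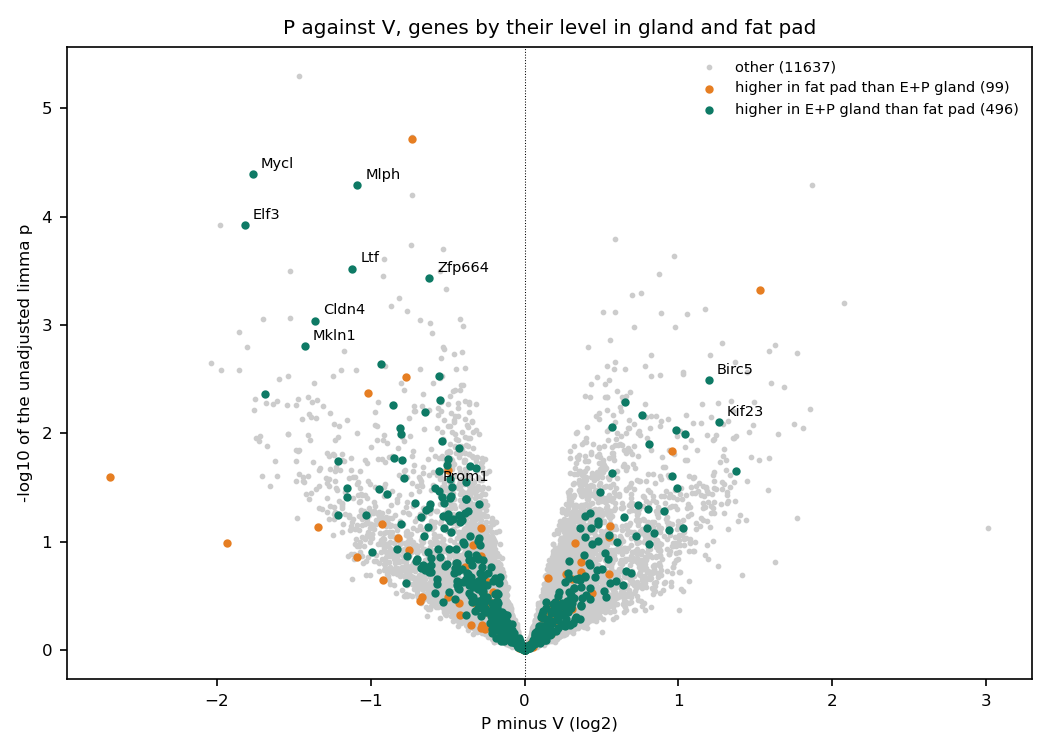
Each point is 1 of 12232 genes, placed by P minus V (log2, horizontal) and by -log10 of the unadjusted limma p (vertical). Green points are the 496 genes higher in the E+P gland than in the fat pad without epithelium, and orange points are the 99 with the opposite difference; Elf3, Mycl, Mlph and Ltf are among the green points with the smallest p on the lower side.

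Genes of cell division leaned upward without any passing the threshold. Of 34 tested mitosis genes, 30 were above 0 and 3 were separated, all upward, against 1.67% of all genes; the median was 0.29. Birc5 read 19.9, 24.2, 16.2 and 24.5 in V and 44.2, 76.3, 30.3 and 51.7 in P (1.20 ± 0.36, adjusted p = 0.415). Kif23 read 45.0, 32.3, 41.8 and 13.6 in V, with V 4 at the floor, and 60.4, 72.0, 75.6 and 82.9 in P (1.26 ± 0.43). Plk1, the kinase that drives entry into mitosis, read 78.6, 95.4, 92.3 and 109 in V and 178, 141, 131 and 139 in P (0.65 ± 0.43), and its other probe set gave 0.29. Mki67, the usual proliferation marker, overlapped at 34.4, 57.6, 35.8 and 58.4 in V and 36.2, 86.1, 46.3 and 79.2 in P (0.37 ± 0.41). Among 35 DNA replication genes 2 were separated upward, the polymerase gene Pola1 (0.48 ± 0.27) and the clamp loader gene Rfc3 (0.44 ± 0.31), and the median was 0.12. The per-animal level of mitosis genes ran from -0.69 to -0.25 in V and from -0.33 to 0.12 in P. P 2 and V 4, the highest animals of their groups, were also high in lymphocyte markers (0.82 and 1.28), but P 3, with the highest lymphocyte level of the P animals (0.86), had the lowest mitosis level of its group. The part of lymphocytes in the mitosis values was not tested.

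Energy metabolism leaned downward in the P animals, the respiratory chain included. Of 58 tested genes of oxidative phosphorylation, 47 were below 0, 8 were separated downward (2.21% of all genes were) and 0 upward, and the median was -0.20. The 8 were subunits of complex I (Ndufa8 and Ndufb8), complex II (Sdhb), complex III (Uqcrc1, Uqcrq, Uqcr10 and Cyc1) and the ATP synthase (Atp5e), at -0.43 to -0.22. Ndufa8 read 606, 634, 648 and 589 in V and 491, 428, 507 and 503 in P (-0.36 ± 0.12, adjusted p = 0.45). Atp5e read 824, 1001, 876 and 835 in V and 696, 763, 558 and 611 in P (-0.43 ± 0.14). The second probe set of Uqcrc1 gave -0.04. Estrogen alone gave low values of some of these genes too. Atp5e (514 to 702), Uqcrc1 (934 to 1171) and Uqcr10 (1003 to 1431) lay below every V animal in E, while Ndufa8 (430 to 590) overlapped V. These differences were therefore not shown to be particular to progesterone. The list level was 0.061, 0.12, 0.16 and 0.084 in V 1 to V 4 and -0.13, -0.069, 0.050 and -0.027 in P 1 to P 4, with P 3 just below V 1. With 1 animal left out, 8 to 18 of the genes were separated downward (13.8% to 31.0%, against 3.28% to 4.69% of all genes); the highest counts were 18 without P 3 and 17 without V 4, where all genes gave 4.69% and 4.39%.

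Glycolysis, fat breakdown and fat synthesis leaned the same way; for the counts that follow, 2.21% of all genes were separated downward. Of 22 glycolysis and pentose phosphate genes 18 were below 0 and 3 were separated, all downward, with a median of -0.21: Aldoa (-0.44 ± 0.13), Pfkp (-0.50 ± 0.16) and Taldo1 (-0.36 ± 0.14). Other probe sets of Aldoa and Pfkp also gave differences above 0. The list level ran from -0.040 to 0.16 in V and from -0.24 to -0.16 in P, without overlap. Of 21 genes of lipolysis and fatty acid oxidation, 19 were below 0, the median was -0.26 and 2 were separated downward, Cpt1a and Slc25a20, which together carry fatty acids into mitochondria. Cpt1a read 556, 601, 629 and 694 in V and 473, 318, 519 and 405 in P (-0.55 ± 0.17, adjusted p = 0.45). Slc25a20 read 673, 620.0, 561 and 541 in V and 451, 324, 503 and 383 in P (-0.54 ± 0.17). Of 26 genes of fatty acid and triglyceride synthesis 3 were separated, all downward, and the median was -0.15: the elongase gene Elovl5, the citrate carrier Slc25a1 and the carboxylase Acacb. Elovl5 read 1205, 1244, 1284 and 943 in V and 917, 823, 862 and 898 in P (-0.41 ± 0.11, adjusted p = 0.37). Slc25a1 read 1602, 1728, 3182 and 1609 in V and 1483, 1358, 979 and 954 in P, with V 3 far above the rest, and its second probe set gave -0.95. Acly, which makes cytosolic acetyl-CoA, spread from 2414 to 8214 in V and from 1548 to 3407 in P, and overlapped. Among 20 cholesterol synthesis genes only Pmvk was separated (-0.48 ± 0.18).

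Markers of brown fat were lower and 2 of white fat higher. Ucp1, the mitochondrial uncoupling protein of brown fat, read 175, 279, 169.9 and 169.9 in V and 103, 42.4, 144 and 89.7 in P (-1.16 ± 0.50, adjusted p = 0.578), and its second probe set gave -1.06. Cidea, a lipid droplet protein, read 428, 496, 719 and 463 in V and 273, 402, 216 and 241 in P (-0.91 ± 0.26, adjusted p = 0.408). It read 140 to 201 in E, lower still. All 6 tested brown adipocyte markers were below 0, and 2 were separated downward (33.3%, against 2.21% of all genes). The list level was 0.38 to 0.68 in V and -0.18 to 0.11 in P. Leptin (Lep) read 491, 597, 559 and 425 in V and 1021, 1165, 697 and 941 in P (0.87 ± 0.20, adjusted p = 0.236), with 1.82 on its second probe set. Fabp4, a fatty acid carrier, read 386, 405, 384 and 383 in V and 465, 454, 538 and 491 in P (0.32 ± 0.12). These 2 are 10% of the 20 white adipocyte markers, against 1.67% of all genes separated upward. The other 18 overlapped, and the list median was -0.11. Skeletal muscle, which is rich in respiratory chain and glycolytic RNA, was lower alongside these lists in part: 17 of its 22 tested markers were below 0, and P 1, P 3 and P 4 were the lowest animals of both groups for its level. Its defining gene Acta1 read 51.9, 193, 453 and 162 in V and 13.6, 135, 15.1 and 15.2 in P, and its part in the metabolic lists was not tested.

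**Figure D4:**
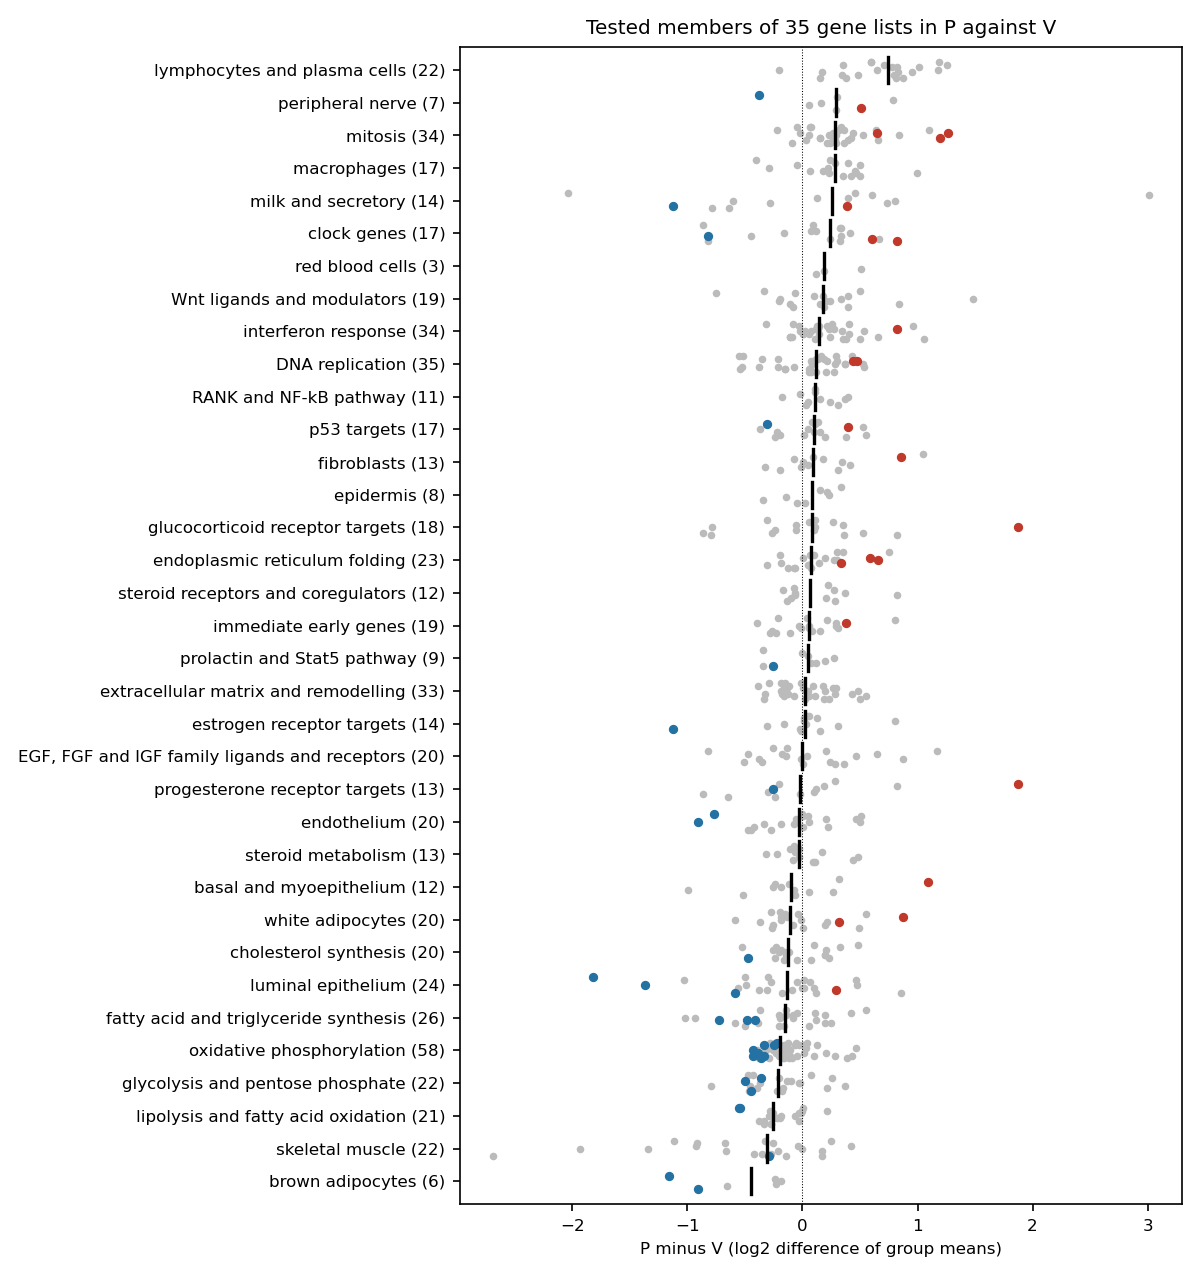
Each point is a tested gene of 1 of 35 lists, placed by P minus V (log2); numbers in brackets are tested genes. Red and blue mark genes whose P animals all lie above or all below the V animals, grey the others, and black bars are list medians, which run from -0.45 for brown adipocytes to 0.74 for lymphocytes and plasma cells.

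Clock, protein folding and interferon genes supplied further genes. Promoters of 3 genes picked from these lists carry the element through which their pathway is known to act. Most promoters of the lists at hand had no match. The 3 are shown as the 250 bases before the gene's start, from RefSeq on mouse build GRCm38, with the element in capitals. Per3 lies on the minus strand at chr4:151044666-151044915, Canx on the minus strand at chr11:50325674-50325923 and Rsad2 on the minus strand at chr12:26456453-26456702.
Per3: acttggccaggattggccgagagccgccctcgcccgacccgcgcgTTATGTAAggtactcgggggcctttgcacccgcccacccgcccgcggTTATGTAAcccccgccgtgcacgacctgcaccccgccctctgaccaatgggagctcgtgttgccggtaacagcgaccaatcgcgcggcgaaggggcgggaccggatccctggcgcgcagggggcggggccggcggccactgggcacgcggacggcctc
Canx: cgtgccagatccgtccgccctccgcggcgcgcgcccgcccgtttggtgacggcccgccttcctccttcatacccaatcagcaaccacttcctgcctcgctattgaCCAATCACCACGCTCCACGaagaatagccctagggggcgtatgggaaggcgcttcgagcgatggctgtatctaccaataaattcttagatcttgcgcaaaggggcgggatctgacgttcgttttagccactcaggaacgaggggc
Rsad2: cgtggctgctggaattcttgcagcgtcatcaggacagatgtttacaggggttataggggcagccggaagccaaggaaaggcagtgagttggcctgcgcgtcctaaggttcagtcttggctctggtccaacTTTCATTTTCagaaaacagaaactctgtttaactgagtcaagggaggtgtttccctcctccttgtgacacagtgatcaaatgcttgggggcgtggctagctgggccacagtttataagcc
The capitals are a D-box (TTATGTAA) in Per3, an ER stress element (CCAAT, 9 free bases, CCACG) in Canx and an interferon-stimulated response element (GAAA, 2 free bases, GAAA, here on the opposite strand) in Rsad2. Both strands were searched with these 3 motifs, which were chosen after the data had been seen. The motifs share no match with one another in these promoters, though the ER stress element begins with a CCAAT box, a motif of its own. Matches lay in 0.819%, 0.113% and 2.98% of 32851 promoters of the same length. A match is a description and not evidence of binding.

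The D-box is bound by Dbp, a clock output factor, and Per3 and Dbp were the 2 genes separated upward among 17 clock genes, with 1 downward (1.67% and 2.21% of all genes). Dbp read 156, 167, 268 and 280.3 in V and 330.0, 372, 473 and 329.7 in P (0.82 ± 0.23, adjusted p = 0.37). Per3 read 119.6, 95.2, 110.1 and 123 in V and 167, 213, 137 and 168 in P (0.60 ± 0.19, adjusted p = 0.447), and its other 2 probe sets gave 0.29 and 0.75. Noct, the rhythmic gene nocturnin, went the other way at 423, 396, 308 and 217 in V and 177, 201, 215 and 152 in P (-0.82 ± 0.20), although its other probe set gave 0.26. Arntl, the activating partner of the clock, read 70.9, 54.9, 31.1 and 46.0 in V and 31.8, 16.7, 41.9 and 25.8 in P and overlapped. The list median was 0.24. Times of day of collection were not given in the sources used here. The D-box word was in 1 of 15 clock gene promoters at hand, that of Per3, with matches 205 and 158 bases before its start.

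Of 23 genes of protein folding in the endoplasmic reticulum 3 were separated upward and 0 downward (1.67% and 2.21% of all genes were), with a median of 0.071. Pdia3, a disulfide isomerase, read 348, 359.6, 426 and 411 in V and 645, 564, 525 and 703 in P (0.66 ± 0.21, adjusted p = 0.45). Herpud1, which helps clear misfolded proteins, read 216, 224, 209.6 and 183 in V and 294, 273, 356 and 327 in P (0.58 ± 0.17, adjusted p = 0.408). Canx, the chaperone calnexin that binds newly made glycoproteins with Pdia3, read 246, 255, 258 and 269 in V and 319, 349, 353 and 282 in P (0.34 ± 0.16), and its other probe set gave 0.20. The ER stress element was in 7 of 20 promoters of the list at hand, the one in Canx 145 bases before its start. Pdia3 and Herpud1 were not among the 7. The main chaperone gene Hspa5, which also holds the element, stood at 0.30 and overlapped.

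Of 34 interferon response genes 27 were above 0, 1 was separated, upward (1.67% of all genes were), and the median was 0.14. Usp18, which damps interferon receptor signalling, read 59.1, 67.8, 35.1 and 49.4 in V and 75.2, 85.3, 110.1 and 96.2 in P (0.82 ± 0.27, adjusted p = 0.46). Rsad2, an antiviral enzyme, read 248, 125, 116 and 75.1 in V and 231, 218, 305 and 332 in P (1.06 ± 0.27, adjusted p = 0.283), and only V 1 reached the P range. The response element was in 10 of 29 promoters of the list at hand, in Rsad2 at 120 bases before its start. No promoter of Usp18, the separated gene, was at hand.

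Other cell types added single genes, where 1.67% of all genes were separated upward and 2.21% downward. In the endothelium the tight junction gene Cldn5 read 453, 420.3, 424 and 289.9 in V and 229.7, 259.9, 125 and 249.7 in P (-0.91 ± 0.21, adjusted p = 0.212), and Rbp7, a retinol-binding protein, read 1456, 1258, 1197 and 1075 in V and 780.2, 867, 644 and 634 in P (-0.77 ± 0.23). The general endothelial genes Pecam1 and Cdh5 stood at 0.50 and -0.34, and 18 of 20 markers overlapped. Dpp4 among 13 fibroblast markers read 45.4, 23.1, 46.8 and 65.4 in V and 72.6, 73.9, 80.0 and 79.7 in P (0.85 ± 0.28). In peripheral nerve Sox10 (-0.38 ± 0.17) and Mag (0.51 ± 0.23) were separated in opposite directions, and Eno3 in skeletal muscle stood at -0.29 ± 0.24. The 2 other probe sets of Sox10 gave -0.68 and 0.09 and overlapped. Macrophage (17), lymphocyte (22), epidermis (8) and red blood cell (3) markers and 33 matrix genes held no separated gene. Lymphocyte markers had the highest median of all lists, 0.74, although V 4 lay above every P animal in their level, and none passed the threshold. The p53 targets Plk3 and Ei24 (0.40 ± 0.22 and -0.31 ± 0.12) and the early response gene Zfp36 (0.38 ± 0.20) complete the separated list members. The other probe set of Ei24 gave 0.58 and overlapped. Of the 35 lists, V and P animals did not overlap in level for 3, those of brown adipocytes, oxidative phosphorylation and glycolysis.

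Whether progesterone did the same with estrogen on board was tested as the difference of 2 responses, E+P minus E less P minus V, which share no animal. Of 23062 probe sets, 17 (0.0737%) passed the threshold, and in each of them the estimates of the 2 responses had opposite signs. The call is on their difference. No P minus V response passed the threshold by itself, and of the E+P minus E responses only some did. A reversal of direction was therefore not shown for any of them. For Zbtb16 the response was 1.87 ± 0.37 without estrogen and -1.79 ± 0.35 with it, a difference of -3.66 ± 0.50 (adjusted p = 0.00994). The E animals read 412 to 719 and the E+P animals 92.0 to 217, so the signal was high with either hormone alone and near the vehicle level of 81.0 to 195 with both. The second probe set behaved alike, with a difference of -2.37 (adjusted p = 0.0122). The call held for the first probe set in 21 of 21 other settings, and for the second in 20 of 21.

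Estimated responses above 0 without estrogen and below 0 with it were also found for Fam13a, Zbtb20, Eif4e3, Kcnk12, Syde2 and 6430571L13Rik and an unnamed probe set. Not all of them came back to the vehicle level with both hormones: Eif4e3 read 377 to 546 in E+P, above the 238 to 367 of V, and Zbtb20 read 59.6 to 137 against 28.6 to 61.2. These differences of E+P from V, 0.70 and 1.09, did not pass the threshold (adjusted p = 0.09 and 0.11). Fam13a, a gene of fat distribution, read 396, 243, 304 and 158 in V and 598, 560.0, 446 and 535 in P, 591 to 691 in E and 138 to 399 in E+P, for a difference of -2.37 ± 0.38 (adjusted p = 0.0123). Its second probe set gave 0.20 for P minus V. Zbtb20 differed by -2.51 (adjusted p = 0.0139), Kcnk12 by -3.94 (adjusted p = 0.028) and Eif4e3 by -1.35 (adjusted p = 0.0421). Some of these calls were often lost in other settings: that of Eif4e3 was kept in 11 of 21, that of Kcnk12 in 13 of 21 and those of Syde2 and 6430571L13Rik in 14 of 21 each, while Fam13a kept its call in 20 of 21 and Zbtb20 in 19 of 20. With 1 animal left out in turn, Eif4e3 was called in 3 of 8 fits, Kcnk12 in 4 and Syde2 and 6430571L13Rik in 5 each. Fkbp5, which was not among the 17, had responses of 0.83 and -1.31 (adjusted p = 0.0583 for their difference).

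The reverse, an estimated response below 0 without estrogen and above 0 with it, was found for Ucp1, Elf3, Slc30a2, Gorasp2, Mast2, Sprr2b and Gm15867 and another unnamed probe set. Ucp1 had responses of -1.16 ± 0.50 and 3.12 ± 0.48, a difference of 4.28 (adjusted p = 0.0131). Its E animals, at 13.6 to 32.3, were lower still than the P animals. Elf3 had responses of -1.82 and 1.40, a difference of 3.22 ± 0.53 (adjusted p = 0.0139), and read 183 to 207 in the 5 E+P animals. Slc30a2 was at the floor in all 4 E animals and reached 73.6 in E+P (difference 3.35, adjusted p = 0.0185). Sprr2b, a structural protein of squamous epithelium, read 20.7 to 96.5 in V, 20.9 to 51.0 in P and 113 to 423 in E+P (difference 3.67, adjusted p = 0.0366). With both hormones most of these genes were near or below vehicle: E+P minus V was -0.11 for Ucp1, 0.04 for Mast2, 0.21 for Gorasp2, -0.62 for Slc30a2, 0.44 for Elf3, 1.11 for Gm15867 and 1.82 for Sprr2b, none past the threshold. The calls of Mast2 and Sprr2b were kept in 12 of 20 other settings each, in 3 and 4 of the 8 fits with 1 animal left out, and that of Slc30a2 in 16 of 20. Elf3 kept its call in 17 of 21, Gm15867 in 18 of 20 and Ucp1 and Gorasp2 in 20 of 21. Cldn4 missed the threshold with responses of -1.37 and 0.85 (adjusted p = 0.0856).

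Most of the strongest P-against-V differences had the other sign when estrogen was given. Of the 12 largest upward, 4 were above 0 in E+P against E, where 52.5% of all genes were, and of the 12 largest downward 3 were below 0, where 47.5% were. Estrogen alone, set against the same V animals, gave similar values for many of them, so these differences were not shown to be particular to progesterone. E minus V stood beside P minus V at 1.32 and 2.08 for Kcnk12, at 2.05 and 1.87 for Zbtb16, at 1.66 and 1.75 for Mapk10 and at 1.47 and 1.53 for Ccnd2. Downward it was -1.99 and -1.98 for Slc30a2, -2.13 and -1.81 for Cnpy1 and -0.96 and -1.82 for Elf3, but 0.42 and -1.77 for Mycl. Since both comparisons use the V animals, their likeness is not independent. The change of sign was not general. Of all genes with an unadjusted p under 0.01 and no overlap, 22 of 57 upward and 33 of 96 downward kept their sign in E+P against E. Ltf and Rbp7 were lower in both settings: Ltf at -1.12 and -1.46, and Rbp7 at -0.77 and -1.60. Across 12232 genes of these arrays the 2 responses correlated at r = -0.21; genes are not independent replicates, and the values share array types and scaling. The count of 17 varied with the animals kept, being 45 without P 4, 48 without V 4 and 11 without V 2. It was 4 with the Gapdh ratio in the model and 9 with the lymphocyte level. The E animals, which enter these differences and P against E, had Gapdh ratios of 1.24 to 1.72 on array type A. All of these lay below every V animal (1.97 to 3.69), while E+P ran from 1.49 to 2.76. The cause of the drop in calls was not tested.

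**Figure D5:**
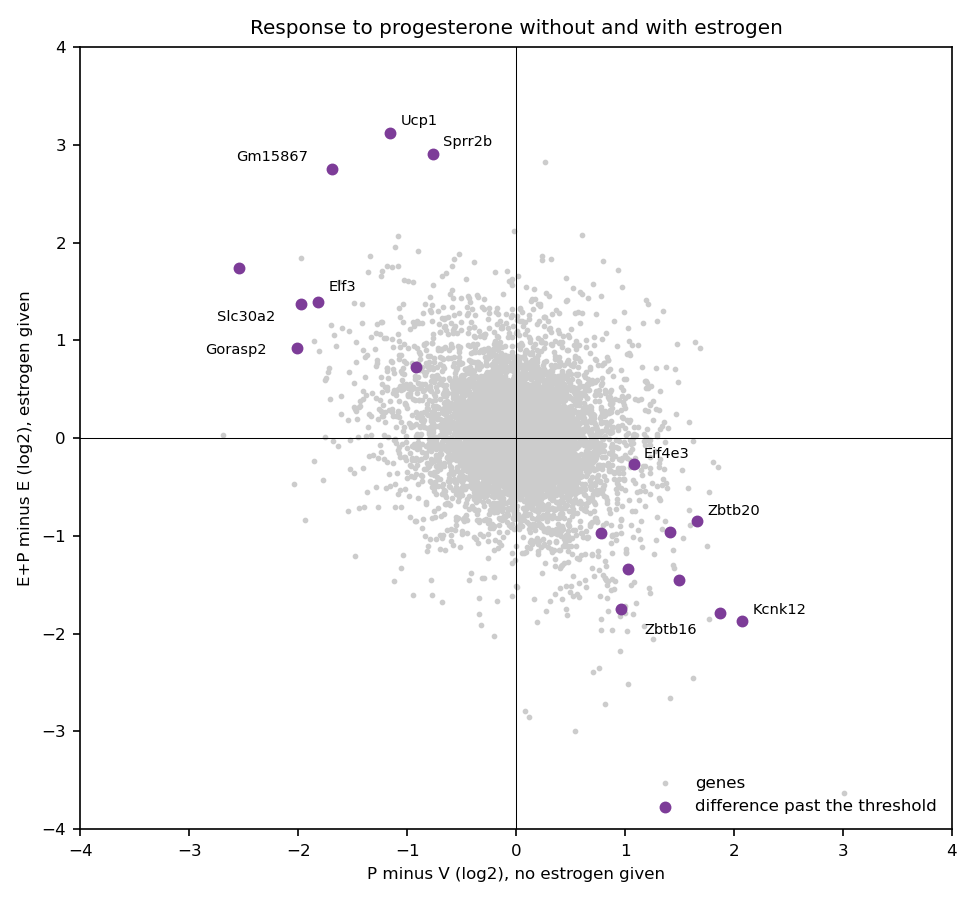
Each point is 1 gene, placed by its response to progesterone without estrogen (P minus V, horizontal) and with it (E+P minus E, vertical), both as log2 differences. Purple points are the probe sets whose 2 responses differed past the threshold, and all of them lie in the quadrants of opposite sign.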

How the data were processed

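RNA of mammary glands or fat pads was labelled with biotin and read on the A, B and C arrays of the MG-U74 set, per the labels' protocols. The authors deposited linear signal intensities from MAS5, per the submitters' processing notes. Settings and version of MAS5 were not given in the sources used here. Equal replicate numbers within a group were read as the same animal across array types. Of 36899 probe sets 198 were controls; 29131 carried 1 gene symbol, 724 several and 6846 none, and a name was used only where there was 1.

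Arrays were scaled to the common 2% trimmed mean of their type, raised to a floor at its 25th percentile and log2-transformed. Testing required signals above the 50th percentile (61.6, 85.7 and 61.8 on A, B and C) in 3 or more of the 20 animals, which left 7221, 7716 and 8125 probe sets. Group means of all 5 groups were fitted per array type with limma 3.58.1 (R 4.3.3, eBayes with trend), and p-values were adjusted by Benjamini-Hochberg over the 3 types. The script was tested on simulated data. The probe set standing for a gene was taken by array type (A first, C last), then for having no special suffix, then for its mean.

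Named were the 12 largest differences each way among genes with an unadjusted p under 0.01 and groups that did not overlap, up to 4 separated members of each list by smallest p, a set of 33 genes (23 tested; Prlr, Calca and Areg were not analysed here), the first 10 probe sets of the difference of the responses, and probe sets called under an alternative. Others were named after their values had been seen. The comparison, its genes and its lists were chosen with earlier results of these data known. The single-value test was a two-sided exact permutation test. Alternatives changed scaling, floor, filter, variance model, weights, block, covariates, probe sets per gene and the animals kept. The number of arrays limits the precision.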

Additional observations from a re-analysis of the deposited data

Results flagged for a closer look

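Single animals stood apart from the other 3 of their group in 16 of 161 groups looked at by Dixon's criterion, which chance alone meets in about 1 in 20. The animal V 4 did so most often. It was low for Phf7 at 62.23, for the second Zbtb16 probe set at 132.3, for Esr1 at 552.9 and for Adipoq at 8315, and for the levels of endoplasmic reticulum folding (-0.2243) and white adipocytes (-0.3198). It was high for lymphocytes and plasma cells at 1.282. V 1 was high for Slc30a2 at 147.9 and V 2 for Ucp1 at 279.2. V 3 was high for Slc25a1 at 3182 and low for red blood cells at -0.6722. Of the P animals, P 2 was high for Elf3 at 85.78 and for DNA replication at -0.01136, and low for brown adipocytes at -0.1782. P 3 was low for Zbtb20 at 73.4, and P 1 was high for fibroblasts at 0.4735. With such an animal in place, V and P did not overlap for Phf7, Zbtb16, Ucp1, Slc30a2, Slc25a1, Elf3, Zbtb20 and brown adipocytes.

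The response to progesterone differed between animals without and with estrogen for 17 probe sets by the test of the difference, E+P minus E less P minus V. It was below 0 for Zbtb16 (-3.664 and -2.372 on its 2 probe sets), Kcnk12 (-3.945), Zbtb20 (-2.514), Fam13a (-2.367), 6430571L13Rik (-2.711), Syde2 (-1.75), Eif4e3 (-1.348) and an unnamed probe set (-2.948). It was above 0 for Gm15867 (4.442), another unnamed probe set (4.284), Ucp1 (4.278), Sprr2b (3.666), Slc30a2 (3.348), Elf3 (3.215), Gorasp2 (2.939) and Mast2 (1.653).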

How the results depend on the processing

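The count of 0 between P and V became 1 with median scaling (Tomm34), 3 with the floor at the 40th percentile (Tomm34, Eif4e3 and Gorasp2), 1 with no filter and 0 to 4 when 1 animal was left out, and stayed at 0 in the other settings. The genes separated upward numbered 123 with the filter at the 75th percentile, which tests fewer genes, and 336 to 498 with 1 animal left out; those downward numbered 400 to 572 then. Median scaling gave 173 upward and 332 downward. The 17 differences of the progesterone responses became 27 with median scaling, 29 with an offset of 32 in place of a floor, 36 with array weights, 4 with the Gapdh ratio and 9 with the lymphocyte level as a covariate, and 11 to 48 with 1 animal left out. The 13 differences of P against E became 5 with no filter, 8 without the intensity trend, 20 with array weights, 6 with the lymphocyte level and 4 to 22 with 1 animal left out. The causes were not tested. Same-numbered animals did not deviate together (correlations of -0.10 to 0.028, with 0 of 4 numbers best matched to their own), so the numbers were not taken as pairs. With the replicate number as a block, P against V gave 0 and the difference of the responses 10. A fit on P and V alone gives no test of the other contrasts. The log2 Gapdh ratio, P minus V, was -0.29 and lay between -0.40 and -0.095 with 1 animal left out.

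No called value changed sign. Of 99 named probe sets 7 turned sign in some of 22 settings, those of Tnfrsf11a, Wnt4, Ccnd1, Elf5, Klf9, Sgk1 and Krt8, and 0 of the 24 largest differences did. Of 560 recomputed list medians 18 moved by more than the spread between animals. Dim probe sets limit what can be seen of Pgr, Tnfsf11, Krt5, Krt14, Csn2 and Wap.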
